A study of Mus musculus with 4 samples.

Results

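Transcripts of 10 genes of the Notch pathway were compared between CGR8 mouse embryonic stem (ES) cells kept with leukemia inhibitory factor (LIF) and cells deprived of it. The genes were the ligands Dll1, Dll3, Jag1 and Jag2, the receptors Notch1, Notch2 and Notch3, and the target genes Hes1, Hes5 and Hey1. They were chosen by name, with earlier results of these data known. Every probe set that the platform annotation assigned to 1 of these symbols alone was used, which gave 17 of 34945 probe sets and 10 of 18193 genes. CGR8 is an established line of ES cells, here grown on gelatin in medium with serum replacement. The study compared 2 arrays of cells given LIF (1000 U/ml) with 2 arrays of cells whose medium lacked it, each after 2 days. LIF is a cytokine that keeps mouse ES cells undifferentiated through the transcription factor Stat3. The labels give the arrays of each group the numbers 1 and 2 and do not say that they came from separate cultures, so the p-values reflect the spread among the arrays alone and that spread may be technical.

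Notch signalling passes between touching cells. A ligand of the Delta-like or Jagged type on one cell binds a Notch receptor on its neighbour, gamma-secretase then frees the intracellular part of the receptor, and this part joins the DNA-binding protein RBPJ and a Mastermind coactivator to switch on genes of the Hes and Hey families. In ES cells the pathway is known mainly for favouring entry into the neural lineage, while self-renewal can proceed without it.

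The largest differences among the 9 genes tested were those of the ligand Dll1, the receptor Notch3 and, by less, the ligand Dll3. All 3 were higher without LIF and ranked 44th, 699th and 1539th highest of the 14445 genes tested. The receptors Notch1 and Notch2, the ligands Jag1 and Jag2 and the target genes Hes1 and Hey1 had differences of at most 0.21 on the log2 scale in either direction for their brightest probe sets. None of the 9 genes tested passed limma's test, with 0 at an adjusted p of 0.05 or less and 3 (Dll1, Notch3 and Dll3) at an unadjusted p of 0.05 or less. Over all 14445 genes tested those shares were 0.145% and 10.9%, in either direction. The arrays without LIF lay above both arrays with LIF for 5 of the 9 (Dll1, Dll3, Jag1, Notch2 and Notch3) and below them for 0, against 27.3% and 15.2% of all genes tested (42.5% in either direction). The difference was positive for 7 of the 9, against 59.4% of all genes. Of the 14 probe sets tested, 8 lay wholly higher without LIF and 0 wholly lower, and some of the 8 belonged to the same gene. Among all tested probe sets 24.5% lay higher and 38.6% lay apart in either direction. In the fit of single probe sets 0 of the 14 tested passed (0% of all). The median log2 difference was 0.20 over the 9 and 0.09 over all genes tested. All differences were taken as log2 signal without LIF minus that with LIF, the SE given is the moderated one of limma, and adjusted p-values are Benjamini-Hochberg values over all genes tested. In bulk RNA, fewer cells of a type and less RNA per cell cannot be told apart. Hes5 lay below the filter on dim genes, a mean signal of 22.9, and was not tested.

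**Figure D1:**
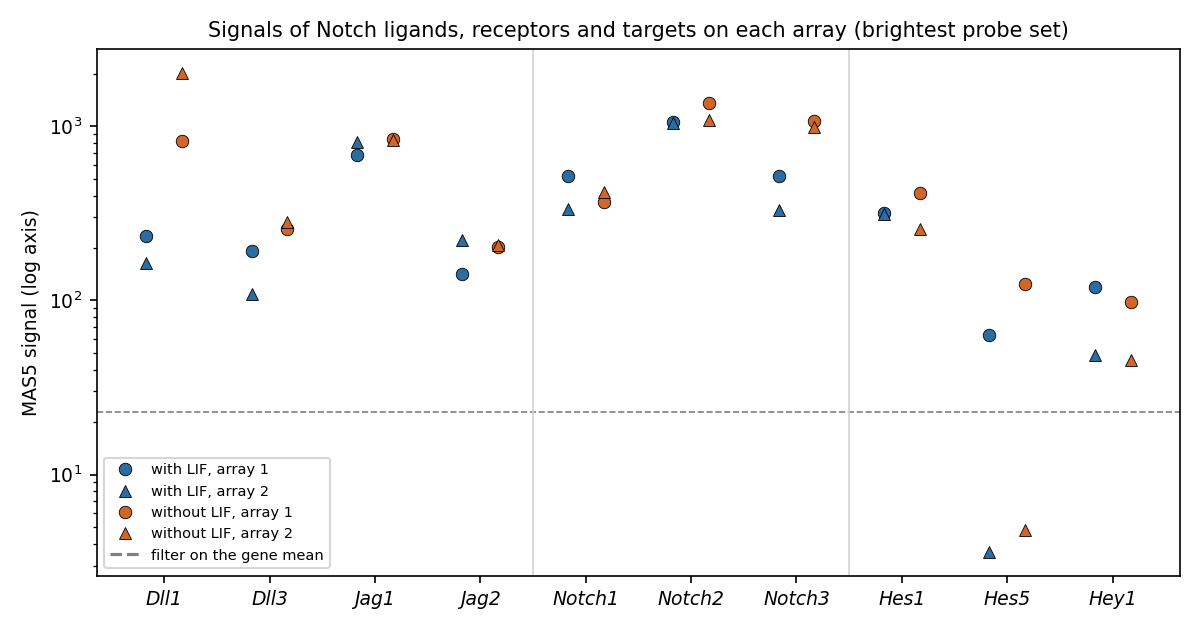
MAS5 signal of the brightest probe set of each gene on a log axis, with 1 point per array (circles for arrays numbered 1, triangles for arrays numbered 2) and a dashed line at the filter signal of 22.9. Dll1 and Notch3 have both arrays without LIF (orange) above both arrays with LIF (blue), and Hes5 is split by array number, with 3.6 and 4.8 on the arrays numbered 2.

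Median signals over all probe sets ranged from 59.6 to 95.5 per array, and log2 signals of tested genes correlated at r = 0.962 between the arrays with LIF and 0.948 between those without. The arrays also differed by their number in the labels, for example in the 18S ribosomal RNA control, whose signals were 462 and 451 for number 1 but 5150.4 and 2990.4 for number 2. Differences within each number are therefore given beside the main values. Of 8 primitive endoderm markers all 8, and of 9 neural progenitor markers 7, lay above the filter signal on all 4 arrays. This level thus did not tell cell types apart. All 8 ES cell marker genes lay above it as well. None of the 8 passed. Of them 4 lay wholly lower without LIF and 1 wholly higher, against 15.2% and 27.3% of all genes tested. Their differences ran from -1.41 for Nanog, a factor of the naive state, to 0.87 for Lin28a, an RNA-binding protein (limma adjusted p = 0.12 for both). With 1 array left out, the differences ranged from -1.76 to -1.07 for Nanog and from 0.76 to 0.98 for Lin28a. Pou5f1, the core pluripotency factor Oct4, had a log2 difference of 0.021 (adjusted p = 0.99), which was -0.27 when all arrays were scaled to the same median signal (a common median).

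Dll1, a Delta-like ligand that activates Notch on neighbouring cells, showed the largest difference of the ligands. Its only probe set read 234 and 164 with LIF, against 822 and 2024 without LIF. The groups did not overlap, and the higher of the values without LIF was on the array numbered 2. Means were 199 ± 49.5 with LIF and 1423 ± 849 without LIF (SD, n = 2). The log2 difference was 2.72 (6.58-fold; SE 0.43; 95% interval 1.69 to 3.74; limma adjusted p = 0.077), and it was 1.81 for number 1 and 3.62 for number 2. This was the 44th highest difference of the 14445 tested genes. With 1 array left out, the Dll1 difference ranged from 2.07 to 3.37. Dll1 passed when arrays were scaled to a common median (2.42, adjusted p = 0.0071). It did not pass with quantile normalization (adjusted p = 0.13), without the mean-variance trend (0.3) or with the mean of each gene's probe sets (0.14). Nor did its probe set pass in the fit of single probe sets (0.23).

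The RefSeq promoter table of assembly GRCm38.p6 held 8 of the 10 genes, among them Dll1 with 2 start sites. The 250 bases before the outer Dll1 start, at chr17:15376933-15377182 on the minus strand, are shown because this gene had the largest difference. They were searched on both strands for the RBPJ motif GTGGGAA, read on the other strand as the letters TTCCCAC, and the STAT motif TTCNNNGAA, which reads the same on both. No match stood in this window, so it has no capitals.
Dll1: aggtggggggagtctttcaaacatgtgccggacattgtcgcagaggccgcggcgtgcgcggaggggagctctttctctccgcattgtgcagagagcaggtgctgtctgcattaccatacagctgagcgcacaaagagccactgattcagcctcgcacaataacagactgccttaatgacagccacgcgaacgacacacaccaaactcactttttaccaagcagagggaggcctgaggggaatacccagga

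Dll3, a divergent Delta-like protein that acts mostly inside the cell that makes it and can inhibit Notch there, read 193 and 108 with LIF, against 258 and 281 without LIF. The groups did not overlap, and the values without LIF lay closer together than those with LIF. The log2 difference was 0.90 (SE 0.37; 95% interval 0.03 to 1.77; adjusted p = 0.44), and it was 0.42 for number 1 and 1.38 for number 2.

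The Jagged ligands differed less. Jag1, a ligand of boundary and vascular tissues among others, read 686 and 813 with LIF, against 850 and 839 without LIF on its brightest probe set, a log2 difference of 0.18 (95% interval -0.31 to 0.67; adjusted p = 0.81) that became -0.12 when arrays were scaled to a common median. A second Jag1 probe set read 147 and 165 with LIF, against 258 and 266 without LIF, with no overlap and a log2 difference of 0.75 (SE 0.30). In the fit of all 26405 probe sets above the filter its adjusted p was 0.64. The third, at 101 and 158 with LIF, against 219 and 123 without LIF, overlapped between the groups. Its log2 difference was 0.37, with 1.12 for number 1 and -0.37 for number 2. The mean differences of the 3 Jag1 probe sets, on the signals as deposited, thus differed in size though not in sign. Jag2, a second Jagged ligand, read 143 and 223 with LIF, against 203 and 208 without LIF on its brightest probe set (log2 difference 0.20; 95% interval -0.60 to 1.01; adjusted p = 0.87; -0.089 with a common median). The values without LIF lay between those with LIF. Its dimmer probe set read 105 and 125 with LIF, against 225 and 149 without LIF, without overlap, at a log2 difference of 0.68.

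Notch3, the form best known from vascular smooth muscle, had the largest difference among the receptors Notch1, Notch2 and Notch3. Its brightest probe set read 521 and 332 with LIF, against 1078 and 992 without LIF, with means of 426 ± 134 and 1035 ± 60.4 (SD, n = 2). The groups did not overlap, and the lower array without LIF was well above the higher array with LIF. The log2 difference was 1.32 (2.49-fold; SE 0.27; 95% interval 0.67 to 1.96; adjusted p = 0.13), and it was 1.05 for number 1 and 1.58 for number 2. A dimmer probe set of Notch3 gave a similar size, at 107 and 61.5 with LIF, against 180 and 263 without LIF (log2 difference 1.43; SE 0.45; adjusted p = 0.52 over all probe sets). The difference of the brightest Notch3 probe set ranged from 0.99 to 1.64 with 1 array left out.

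The 250 bases before the Notch3 start are shown because this gene had the largest difference among Notch1, Notch2 and Notch3. They lie at chr17:32166891-32167140 on the minus strand of GRCm38.p6. They hold neither motif.
Notch3: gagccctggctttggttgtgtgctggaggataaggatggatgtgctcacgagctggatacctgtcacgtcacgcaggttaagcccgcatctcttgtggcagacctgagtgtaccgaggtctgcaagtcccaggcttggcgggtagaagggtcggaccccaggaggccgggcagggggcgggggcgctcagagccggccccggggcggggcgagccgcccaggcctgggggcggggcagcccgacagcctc

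Notch1, the receptor most often studied in early embryos, overlapped between the groups on both of its probe sets. The brighter read 521 and 334 with LIF, against 367 and 418 without LIF, a log2 difference of -0.09 (95% interval -0.78 to 0.60; adjusted p = 0.94). Its sign differed within the numbers, at -0.51 for number 1 and 0.32 for number 2, and the dimmer probe set followed the same pattern at -0.60 and 0.34. Notch2, a receptor with a similar domain layout, read 1054 and 1043 with LIF, against 1356 and 1089 without LIF on its brightest probe set. Those values did not overlap, but the log2 difference was only 0.21 (95% interval -0.27 to 0.69; adjusted p = 0.77) and became -0.080 with a common median. A second Notch2 probe set was below the filter and was split by array number, at 49.2 and 1.5 with LIF, against 140 and 17.4 without LIF.

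**Figure D2:**
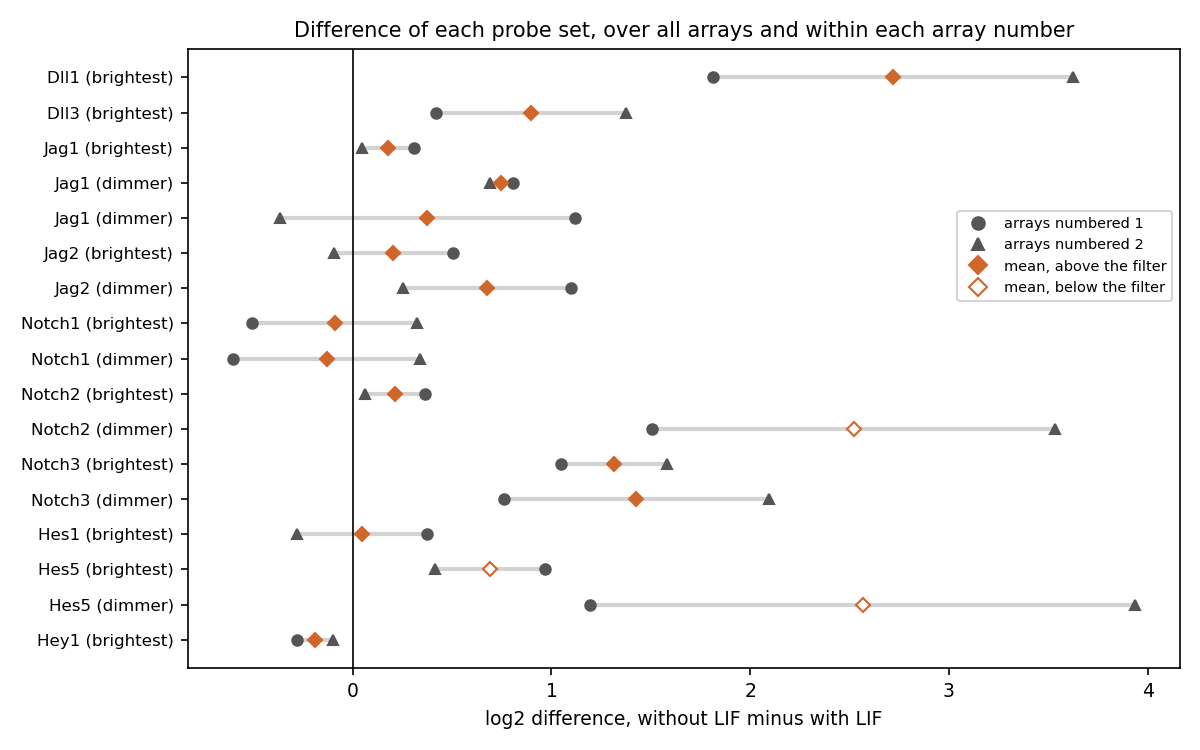
Log2 difference (without LIF minus with LIF) of each of the 17 probe sets, as the mean over all arrays (diamonds, open where the probe set lay below the filter) and within the arrays numbered 1 (circles) and 2 (triangles). The Dll1 and Notch3 probe sets lie above 0 within both numbers. Opposite signs in the 2 numbers are seen for both Notch1 probe sets, Hes1, the dimmest of Jag1 and the brightest of Jag2.

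The direct targets gave no difference in either direction that passed the test. Hes1, a basic helix-loop-helix repressor and a standard readout of Notch activity, read 319 and 314 with LIF, against 413 and 258 without LIF. The values without LIF lay on both sides of those with LIF. Its log2 difference was 0.04 (SE 0.31; 95% interval -0.68 to 0.77; adjusted p = 0.98), and it was 0.37 for number 1 and -0.28 for number 2, and it became -0.043 with quantile normalization and -0.25 with a common median. Hey1, a related repressor, read 119 and 48.6 with LIF, against 98.0 and 45.3 without LIF. Here the arrays numbered 1 were high and those numbered 2 low in both groups, and the log2 difference between the groups was -0.19 (SE 0.63; 95% interval -1.69 to 1.31; adjusted p = 0.94).

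Hes5, a Hes repressor typical of neural progenitors, was split by array number more than any other of the 10 genes, judged on brightest probe sets. Its brighter probe set read 63.5 and 3.6 with LIF, against 124 and 4.8 without LIF. Its dimmer probe set read 22.0 and 1.0 with LIF, against 50.4 and 15.3 without LIF. With 1 array left out, the difference of the brighter ranged from -1.66 to 3.04, so its direction rested on which arrays were compared. Within each number both probe sets were higher without LIF, by 0.97 and 0.42 for the brighter and by 1.20 and 3.94 for the dimmer on the log2 scale, at signals largely near or below the filter, and neither was tested. Of the 10 genes 5 were lower on the array numbered 2 in both groups, against 31.7% of all genes tested.

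The 250 bases before the Hes5 start, at chr4:154960673-154960922 on the plus strand of GRCm38.p6, are shown because they alone, of 9 windows from 8 of these genes, held the RBPJ motif. It occurred in both orientations, in capitals below, with first bases 226 and 83 bases before the start. Of 32851 promoter windows of this length in the table, 5.42% held the RBPJ motif and 7.02% the STAT motif, and none of the 9 windows held the STAT motif. A match to letters does not show that a factor binds there.
Hes5: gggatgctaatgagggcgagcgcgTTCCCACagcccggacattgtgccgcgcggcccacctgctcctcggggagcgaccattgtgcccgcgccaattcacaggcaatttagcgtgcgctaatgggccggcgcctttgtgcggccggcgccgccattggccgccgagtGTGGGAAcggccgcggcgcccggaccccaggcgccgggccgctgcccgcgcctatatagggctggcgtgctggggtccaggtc

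Beyond the 10 genes, 74 other genes of the pathway had been listed by role, of which 68 had a probe set and 64 were tested. Over all genes tested 1 of them fell (0.0969% of all genes fell) and 0 rose (0.0485%), while 6 were higher and 3 lower at an unadjusted p of 0.05 or less (7.16% and 3.73% of all genes tested). Their median log2 difference was 0.05, against 0.09 for all genes tested. The gene that fell was Tle5, a short Groucho-family protein that modulates corepressor function. It read 1227 and 1350 with LIF, against 290 and 381 without LIF, and fell by 1.95 in log2 signal, or 3.87-fold, with an SE of 0.23 (limma adjusted p = 0.049). The groups lay far apart, and the difference was -2.08 for number 1 and -1.83 for number 2. The adjusted p was close to the threshold, and Tle5 did not pass with quantile normalization (0.095), with no filter (0.055), without the mean-variance trend (0.29), with the mean of each gene's probe sets (0.070), or when array 1 (0.080) or array 2 (0.21) with LIF was left out.

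The DNA-binding partner of the receptors, Rbpj, read 5113 and 5830 with LIF, against 2617 and 3920 without LIF. The groups did not overlap, and the log2 difference was -0.77 (SE 0.23; adjusted p = 0.28). Its other probe sets read lower without LIF as well, by differences of -0.56 and -0.65. The coactivator Maml1 had a log2 difference of 0.50 (adjusted p = 0.42) and the corepressor Ctbp1 one of 0.39 (adjusted p = 0.49). Leaving out 1 array gave Rbpj differences from -1.06 to -0.48.

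None of the 15 tested genes of ubiquitination and trafficking, which turn over receptors and ligands, passed, and 7 lay wholly higher without LIF and 1 wholly lower (27.3% and 15.2% of all genes tested). In this list Dtx4, a ubiquitin ligase of the Deltex family, had the largest difference. It read 240 and 87.6 with LIF, against 830 and 874 without LIF, with a log2 difference of 2.56 (SE 0.46; adjusted p = 0.096), and its dimmer probe set gave 1.92. Both arrays without LIF were well above those with LIF. Leaving out 1 array gave Dtx4 differences from 1.83 to 3.28. Dtx4 passed with a common median (2.26, adjusted p = 0.0063) but not with quantile normalization (2.43, 0.12). The other ubiquitin ligases Dtx3 and Mib1, the latter needed to activate ligands in the signalling cell, had log2 differences of 0.76 and 0.41 (adjusted p = 0.34 and 0.54).

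Lfng, the fringe glycosyltransferase that tunes which ligands a Notch receptor answers to, read 56.6 and 64.5 with LIF, against 170 and 172 without LIF. The log2 difference was 1.50 (SE 0.38; adjusted p = 0.20), alike within both numbers at 1.59 and 1.41, while a probe set below the filter differed by 0.32 and the mean of both by 0.91. Gxylt2, which adds xylose to sugars on Notch repeats, had a difference of 2.56 (adjusted p = 0.42) from signals of 4.4 and 28.8 with LIF, against 73.1 and 60.7 without LIF, and ranged from 1.21 without array 1 to 3.92 without array 2 of the cells with LIF. None of the 9 tested glycosylation genes passed, and Rfng, another fringe enzyme, had a difference of 0.20 (adjusted p = 0.81; -0.094 with a common median). Among the cleavage enzymes Ncstn and Psenen, subunits of gamma-secretase, differed by 0.56 and -0.21 (adjusted p = 0.52 and 0.71), and the protease Adam10 by 0.14 (adjusted p = 0.86; -0.16 with a common median). None of the 8 tested members of the cleavage list passed.

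Notch4, a receptor typical of endothelium, read 198 and 144 with LIF, against 50.7 and 16.7 without LIF on its brightest probe set. The groups did not overlap, and the log2 difference was -2.54 (SE 0.63; adjusted p = 0.20). Its other probe sets went against this, with a difference of 0.02 for one and of 0.86 for one below the filter. The mean of its probe sets differed by -0.55. The difference of the brightest Notch4 probe set ranged from -3.34 to -1.74 with 1 array left out. Notch4 passed with a common median (-2.83, adjusted p = 0.0088). Dll4, the endothelial Delta-like ligand, read 51.3 and 43.5 with LIF, against 90.6 and 79.4 without LIF (log2 difference 0.84; adjusted p = 0.58), and its second probe set gave 1.30. The ligand-like proteins Mfap2 and Dlk2 differed by 0.39 and 0.85 (adjusted p = 0.73 and 0.75), and a second Dlk2 probe set, at 17.5 and 10.7 with LIF, by 2.47.

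Of the remaining Hes and Hey relatives, Hes6, which interferes with Hes1, read 296 and 195 with LIF, against 482 and 952 without LIF. The log2 difference was 1.50 (SE 0.39; adjusted p = 0.21), and it was 0.70 for number 1 and 2.29 for number 2, and the second probe set gave 1.12. Leaving out 1 array gave Hes6 differences from 1.01 to 1.99. Hes3 differed by 2.33 (SE 0.98; adjusted p = 0.46) from dim signals of 27.1 and 6 with LIF and ranged from 1.24 to 3.42 with 1 array left out, and Bhlhe40 by -0.66 (adjusted p = 0.47). None of the 7 tested genes of this list passed.

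**Figure D3:**
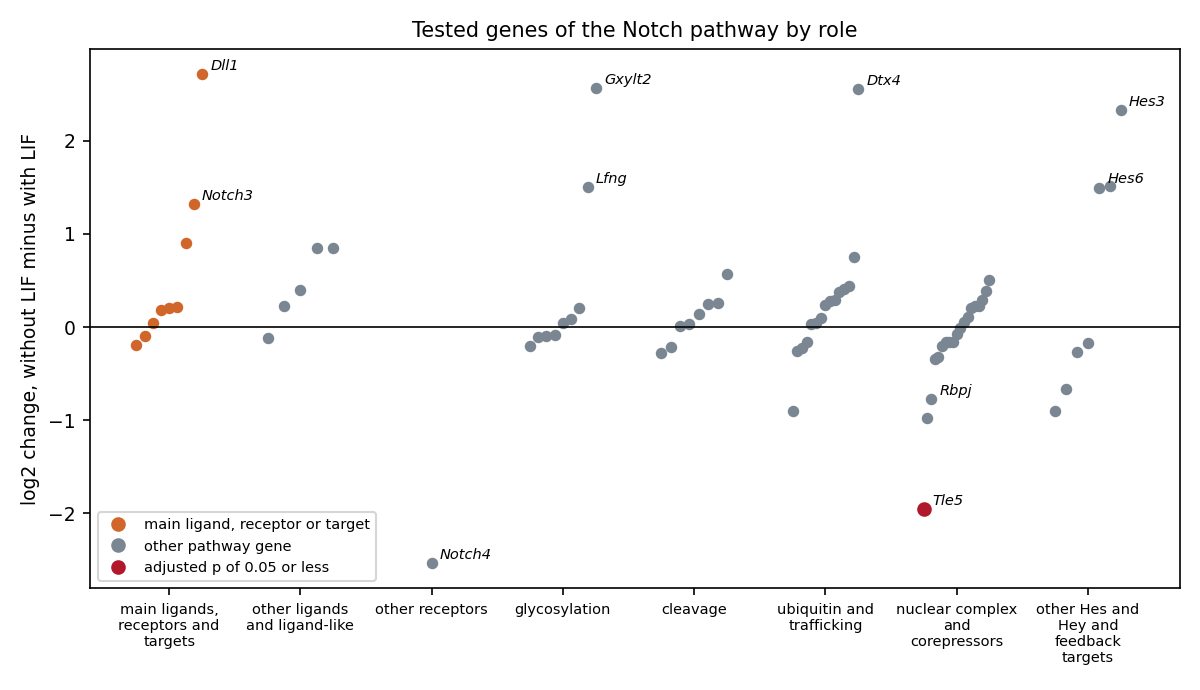
Log2 difference (without LIF minus with LIF) of each tested gene, as 1 point per gene, with the main ligands, receptors and targets in orange, other pathway genes in grey by role and genes with an adjusted p of 0.05 or less in red. Tle5 (-1.95) is the only red point, and Dll1 (2.72), Gxylt2 (2.56) and Dtx4 (2.56) are the highest points.

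Markers of other cell types were read on the same arrays. All 8 primitive endoderm markers were higher on the array numbered 2 than on that numbered 1 in both groups, and their summed signals were 1986 and 5282 with LIF, against 3013 and 12325 for cells lacking it. Dab2 had the largest difference of the 8 and read 429 and 1180 with LIF, against 748 and 3913 without LIF (log2 difference 1.27; adjusted p = 0.6). Its difference was 2.46 without array 1 of the cells lacking LIF and 0.071 without their array 2. The other differences went down to -0.12 for Foxa2, and the median of the 8 was 0.47. Of the 8, 0 lay wholly apart between the groups, against 42.5% of all genes tested. The highest summed signal of the 8 was on the array with the highest Dll1 and Hes6 signals. Most of that sum was Dab2 and Col4a1 (5522 there). Of 9 neural progenitor markers with a probe set 5 were lower on the array numbered 2 in both groups. Their sums were 2529 and 1512 with LIF, against 3783 and 1764 without LIF, taken over all 9. Tubb3 was the largest part of the sums with LIF, at 1224 and 833, and read 459 and 632 without LIF. Sox1, an early neural gene, read 432 and 239 with LIF, against 1422 and 446 without LIF (log2 difference 1.31; adjusted p = 0.46). Its difference was 2.15 without array 2 of the cells lacking LIF and 0.47 without their array 1. The tested neural markers ran from -0.91 for Tubb3, a neuronal tubulin that lay wholly lower without LIF (adjusted p = 0.29), to 1.64 for Nes, a progenitor filament (adjusted p = 0.57; 0.24 without array 2 with LIF), with a median of 0.78. The highest Sox1 signal was on the array with the highest Hes5 signal. The 8 presomitic mesoderm markers summed to 556 and 478 with LIF, against 671 and 745 without LIF, and 4 of them lay above the filter signal on every array. This sum holds the Notch pathway genes Dll3, Lfng and Hes7 themselves, so it is not a separate reading. Of the 6 tested, 3 (Dll3, Lfng and Msgn1) lay wholly higher without LIF and 1 (Meox1, -2.41) wholly lower. Over all genes tested those shares were 27.3% and 15.2%. The 8 endothelial markers summed to 1541 and 1677 with LIF, against 1004 and 1701 without LIF, and 4 of them lay above the filter signal on every array. Most of each sum was Pecam1, at 1204 and 1206 with LIF, against 564 and 914 without LIF. The sums are thus mainly a reading of that gene and not of the list as a whole. Of the 6 tested, 2 lay wholly higher without LIF and 1, Pecam1, wholly lower (27.3% and 15.2% of all genes tested). The median difference of the 6 was 0.44. None of these markers passed the test over all genes. Some lay far below the filter signal, such as Tie1 at 1.5 and 0.9 with LIF, against 5.9 and 2.6 without LIF. Their part in the differences of Dll1, Hes5, Hes6 and the other genes was not tested.

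The genes whose profile over the 4 arrays lay nearest to that of Dll1, by Euclidean distance of log2 signals minus each gene's mean among 13591 named genes, were Nrxn3, a synaptic adhesion protein (distance 0.25), Lpcat4, an enzyme of phospholipid synthesis (0.37), and the T-box factor Tbx4 (0.45). Their log2 differences were 2.64, 2.74 and 2.41 (adjusted p = 0.19, 0.19 and 0.12), from signals of 45.9 and 32.3 with LIF, against 154 and 273 without LIF for Tbx4. With LIF, Nrxn3 (19.1 and 13.3) and Lpcat4 (14.5 and 12.5) lay below the filter signal on both arrays. The Tbx4 difference ranged from 2.00 to 2.83 with 1 array left out. For Notch1, the gene of smallest p among those lower without LIF, the nearest were Pla2g6 (0.06), Efhd2 (0.08) and Thtpa (0.08), whose log2 differences were -0.07, -0.03 and -0.16 (adjusted p = 0.95, 0.98 and 0.89). Likeness over 4 arrays is a description only.

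**Figure D4:**
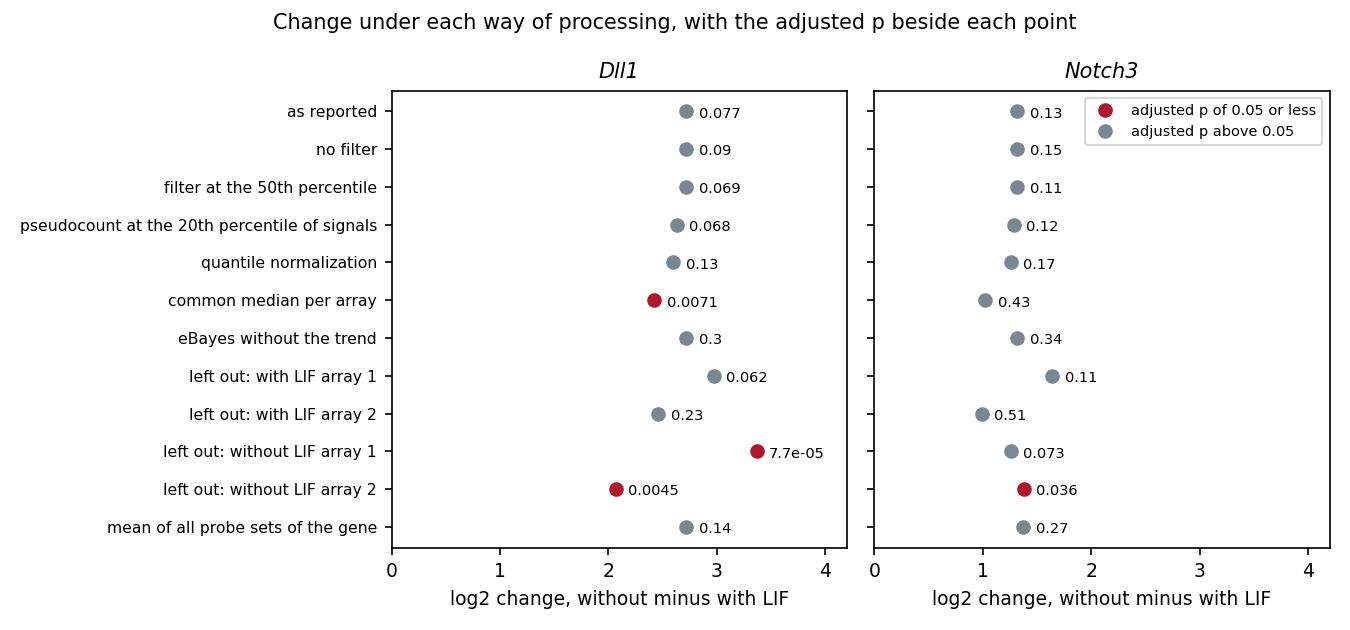
Log2 difference of Dll1 (left) and Notch3 (right) as reported and under 11 of the 12 alternatives, with the array number as a block not drawn, with the adjusted p beside each point and red for an adjusted p of 0.05 or less. Dll1 stays between 2.07 and 3.37 and Notch3 between 0.99 and 1.64. Where 1 array was left out, its group had no spread of its own, so red points there are weak. With a common median Dll1 passed and Notch3 did not, and both passed with the block.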

How the data were processed

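Each probe set had a linear intensity as deposited, and the submitters' processing notes name MAS5 for it, with its version not given in the sources used here. The deposited signals had a trimmed mean (2% of values dropped at either end) of 500.003 to 500.004 per array, so they had a common mean level as deposited, while their medians differed. Detection calls were not analysed here. Of 45101 probe sets, 64 controls, 932 with several gene symbols and 9160 with none were left out. The only value at or below 0 was raised to 0.1. A gene's brightest probe set by mean log2 signal stood for it, and genes above the 30th percentile of mean log2 signal (4.51) entered a two-sided limma test (version 3.58.1, R 4.3.3; lmFit and eBayes with trend; group alone in the model; 2 residual degrees of freedom) at a Benjamini-Hochberg adjusted p of 0.05. Single probe sets were tested in a separate fit. The fit was tested on simulated data.

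Named were the 10 genes, pathway genes that passed and up to 3 more per role list with the smallest p, and 3 nearest genes for each of 2 of the 10. The marker genes named were picked from the marker lists after their values were seen. The genes and lists were chosen with earlier results of these data known. Alternatives were other filters, a pseudocount of 14.3, quantile normalization, a common median, no trend, a block for the replicate number, each array left out in turn and the mean of probe sets. Promoters were from RefSeq. Figures used matplotlib 3.10.9 in Python 3.11.15.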

Additional observations from a re-analysis of the deposited data

How the results depend on the processing

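The count of 0 among the 9 tested genes became 1 with a common median per array, which shifted all differences by -0.29, and 0 to 2 when 1 array was left out. The count of 1 among the other pathway genes became 0 with no filter, quantile normalization, no trend or the mean of probe sets, 3 with a common median, and 0 to 4 when 1 array was left out, where the lone array of a group is assumed to vary like the others. With the replicate number as a block, 2 of the 9 genes passed (Dll1, adjusted p = 9.6e-04, and Notch3, 0.0026), as did 3 of their probe sets and 6 other pathway genes, 3 higher (Dtx4, Hes6 and Lfng) and 3 lower (Tle5, Rbpj and Notch4), with 975 of all genes (6.75%), among them the markers Nanog, Lin28a, Sox1, Tubb3, Nes and Dab2. Over all genes the 21 calls became 0 with no trend, 10 to 131 with the other settings without the block, and 7 to 496 when 1 array was left out. Deviations of same-numbered arrays correlated at 0.29 over genes. The numbers are not stated to pair the samples, so this is a hint from the data only.

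Signs changed as follows, none of them in a gene that passed as reported. With a common median, differences became -0.12 for Jag1, -0.089 for Jag2, -0.080 for Notch2, -0.25 for Hes1, -0.094 for Rfng, -0.16 for Adam10 and -0.27 for Pou5f1. Quantile normalization gave -0.043 for Hes1, and the mean of probe sets gave -0.056 for Adam10 and 0.15 for Efhd2. Leaving out 1 array gave -1.66 to 3.04 for Hes5, which was not tested, -0.12 to 0.52 for Jag2, -0.41 to 0.23 for Notch1, -0.84 to 0.46 for Hey1, -0.20 to 1.90 for Dlk2, -0.38 to 0.24 for Pla2g6, -0.37 to 0.30 for Efhd2, -0.45 to 0.13 for Thtpa, -0.26 to 0.30 for Pou5f1, -0.30 to 0.38 for Hes1 and -0.084 to 0.36 for Adam10. The other genes given alternatives kept their sign in those run. Signals near or below the filter of 22.9 limit Hes5, Gxylt2, Hes3, Nrxn3, Lpcat4 and the dimmer Notch2 and Dlk2 probe sets.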
